A study of Homo sapiens with 4 samples.

Results

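The regions described here are 16960 short peaks of trimethylated lysine 20 of histone H4 (H4K20me3) that were found in senescent IMR90 fibroblasts, matched no peak of proliferating cells and lay outside every region of the differential list. They are named outside peaks below. They were chosen by measured properties. Their length was at least 200 bp and under 4000 bp, and they shared no base with a peak of proliferating cells. They also shared none with a region of the deposited DiffBind list of differences between the growth states. The study describes more such regions than that list holds, so some outside peaks may lie in a region missing from it. Of the 35535 senescent peaks, 33510 lay on chromosomes 1 to 22, and the outside peaks made up 50.6% of these. A further 14462 peaks met the same limits on length and proliferating peaks but touched a DiffBind region, and they are named inside peaks. The other senescent peaks on these chromosomes were 1295 that overlapped a proliferating peak, 364 of 4000 bp or more without one, and 429 that were 1 base long in the list.

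IMR90 is a line of primary human lung fibroblasts with no engineered allele, grown at low oxygen and passaged until division ceased. Proliferating cells (PRO) were taken at population doubling 32 and replicatively senescent cells (RS) at population doubling 86, without drug or oncogene in either group. Each group was profiled by chromatin immunoprecipitation and sequencing with 2 antibodies against H4K20me3, from Millipore and Cell Signaling Technology, which gave 4 samples from 1 line. The lists analysed here hold 1 merged set of peaks per group, the intersection of the peaks of both antibodies, with positions and no heights. Neither the depth at a peak nor the spread between antibodies can be read from them, and no difference below could be tested. The paper reports that read depth differed between the samples. It also reports that peaks of the antibodies overlapped much more in RS than in PRO cells. The part of either in the absence of a PRO peak was not tested.

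H4K20me3 is placed on nucleosomes mainly by the methyltransferase SUV420H2, which is drawn to chromatin that already carries trimethylated lysine 9 of histone H3 and the HP1 proteins that bind it. The mark is known from constitutive heterochromatin, such as satellite repeats beside centromeres, telomeres and silenced transposable elements, and from the bodies of zinc finger genes. Alpha satellite is the tandem repeat on which human centromeres are built, and old, diverged copies of it lie beside them.

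Sequences of outside peaks are shown first, and the counts below refer back to them. The alpha satellite word is a stretch of 30 bases, read from GRCh37, that 103 outside peaks and no inside peak held on either strand. The second word was likewise held by outside peaks and no inside peak. Both were picked after their counts were seen, as words that no inside peak held, so that absence is not a finding. No repeat annotation was used, so the name alpha satellite is general knowledge about the letters.

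alpha satellite word: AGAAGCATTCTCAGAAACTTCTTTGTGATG
second word: AGTGTTTGTCCCTCACATAGGATTCCAGAA

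Stretches of single outside peaks show the tandem and coding motifs that were searched, each taken from the peak with the most matches, and capitals mark the matches on either strand. The first stretch lies at chr9:66817344-66817523 in a peak of 3601 bp and holds a CENP-B box (TTCGNNNNANNCGGG), the site that the centromere protein CENP-B binds. The alpha satellite word above stands in it in lower case. The second lies at chr1:50311319-50311518, in a peak over the body of AGBL4. Its capitals match codons for the linker between zinc fingers, which does not show that the stretch is translated. The third lies at chr1:224201316-224201465 and its capitals are runs of GGAAT, the unit of a satellite found beside centromeres.

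CENP-B box: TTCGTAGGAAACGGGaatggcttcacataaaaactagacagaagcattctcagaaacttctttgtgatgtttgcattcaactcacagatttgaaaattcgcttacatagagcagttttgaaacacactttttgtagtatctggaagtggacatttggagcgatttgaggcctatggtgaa
zinc finger linker: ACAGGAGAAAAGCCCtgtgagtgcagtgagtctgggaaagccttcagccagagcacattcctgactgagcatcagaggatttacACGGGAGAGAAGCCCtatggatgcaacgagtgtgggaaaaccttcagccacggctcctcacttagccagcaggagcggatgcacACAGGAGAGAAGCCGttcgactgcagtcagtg
GGAAT run: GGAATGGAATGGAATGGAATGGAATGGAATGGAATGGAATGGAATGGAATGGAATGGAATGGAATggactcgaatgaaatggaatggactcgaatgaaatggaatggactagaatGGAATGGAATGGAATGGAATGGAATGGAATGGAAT

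The outside peaks covered 15.1 Mb, or 0.564% of the sequenced bases of chromosomes 1 to 22, and the inside peaks covered 0.564% as well. Their median length was 801 bp and their mean length 892 bp ± 529 (SD, n = 16960 peaks), against 1001 bp and 1047 bp ± 644 (SD, n = 14462) for inside peaks. Lengths rise in steps of 200 bp, the window size of the peak caller. Since the list is the intersection of the peaks of both antibodies, a length may be that of a shared stretch and not of a whole peak. Among short peaks of RS cells without a PRO peak, outside peaks made up 62.9% of those of 201 bp and 22.4% of those of 3801 bp, so the share outside the DiffBind list was larger among short than among long peaks. Just inside the length limits were 1215 peaks of 201 bp and 13 of 3801 bp. Just beyond them were the peaks of 1 base and 52 peaks of 4001 bp without a PRO peak. The smallest gap between an outside peak and a DiffBind region was 399 bp, and 373 peaks lay at that gap.

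**Figure D1:**
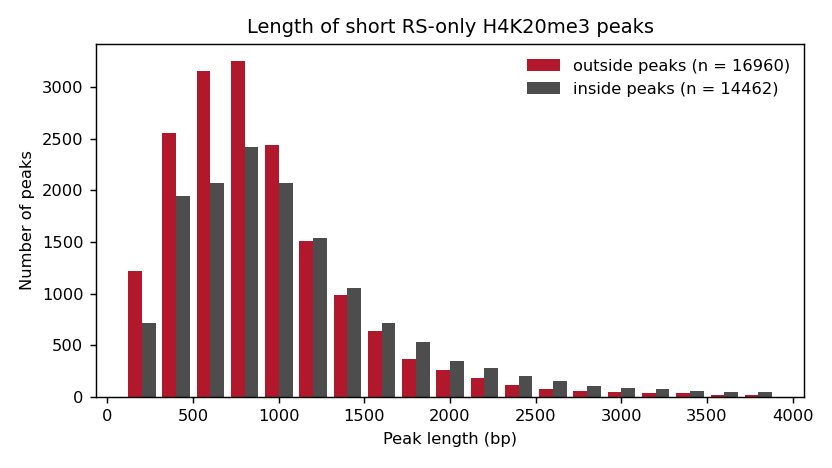
Number of peaks (y axis) by peak length in bp (x axis) for outside peaks in red and inside peaks in grey, all in RS cells and without a PRO peak. Both are most frequent at 801 bp, with 3256 outside and 2417 inside peaks, and inside peaks are the more frequent of the pair from 1201 bp upward.

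Repeated sequence limits where a read can be placed. A 75-base window was counted as repeated where the same letters occur at more than 1 place in the genome. Of all outside peaks, 47.3% held at least 1 repeated 75-base window (95% Clopper-Pearson interval 46.6 to 48.1%, counting error only), against 45.6% of inside peaks. By windows in place of peaks, 13.0% were repeated in outside peaks, 6.70% in inside peaks and 4.01% in the genome. Windows with at least 100 copies made up 1.97% in outside peaks, 0.516% in inside peaks and 0.622% in the genome. A window of at least 1000 copies stood in 7.90% of outside peaks and 4.24% of inside peaks. Outside peaks thus held a larger share of repeated windows than inside peaks. The shares of peaks with any repeat were similar, but inside peaks were longer, which leaves more room for a repeat. Shares of peaks with a repeat were not computed for genome windows of the peaks' lengths. The part of read placement in the division between outside and inside peaks was not tested.

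**Figure D2:**
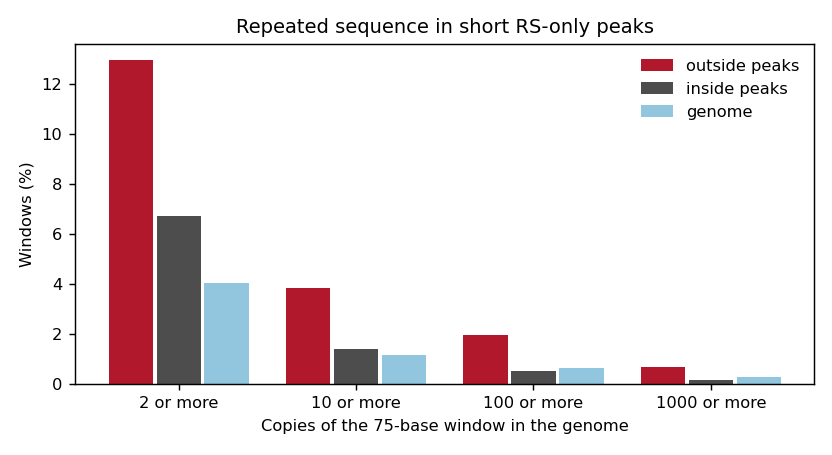
Share of 75-base windows (y axis, %) that occur at least 2, 10, 100 or 1000 times in the genome (x axis), in outside peaks in red, inside peaks in grey and the genome in blue. Outside peaks are highest at each step, from 13.0% repeated at all down to 0.673% with 1000 copies or more, where inside peaks have 0.166%.

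Many outside peaks shared sequence with one another. A word of 30 bases held by at least 30 outside peaks was present in 8853 of them, 52.2% of the class. Of 10151 such words, 4486, short tandem repeats left out, had at least 10% of their genome sites in outside peaks. Since the words were chosen from outside peaks, these counts describe the class and compare it with nothing. Those words were spread over 3780 outside peaks, or 22.3%. Leaving aside those with the alpha satellite period described next, 3569 peaks held such a word. Their GC content was 52.5% ± 4.60 (SD, n = 3569), a coding gene lay under 26.4% of them, and their median gap to the nearest coding gene was 82.9 kb. They thus lay farther from genes than the class as a whole.

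The alpha satellite word was held by 103 outside peaks, 0.607% of the class, and by 0 inside peaks. It was also held by 23 senescent peaks that overlap a PRO peak, 1.78% of theirs, and by 5 peaks of 4000 bp or more without one, 1.37%. Those classes are longer, with median lengths of 1401 and 4801 bp, and held the word in a larger share than outside peaks did. Outside peaks covered 20.1% of its 702 sites. Another 67.4% of the sites lay in no senescent peak and no DiffBind region. Of the 103 peaks 76.7% lay within 2 Mb of the longest unsequenced gap of their chromosome, which on most chromosomes holds the centromere, and their GC content was 37.7%. The second word was held by 33 outside peaks, 0.195%, 0 inside peaks, 13 senescent peaks that overlap a PRO peak, 1.00%, and 5 peaks of 4000 bp or more, 1.37%. Of the 33 outside peaks 90.9% lay within 2 Mb of such a gap. In these 33 peaks 67.5% of the 75-base windows were repeated, against 34.2% in the 103. A tandem period near that of the alpha satellite unit was scored as the share of bases that match the base 170 positions on, or up to 2 further. It passed 50% in 327 outside peaks, 1.93% of the class, in 106 inside peaks, 0.733%, and in 6.56% of senescent peaks that overlap a PRO peak. The counts depend on this limit. At 70% they were 98 outside peaks, 0.578%, and 17 inside peaks, 0.118%, with 1.31% of senescent peaks that overlap a PRO peak. The score was not computed for genome windows, and in the shortest peaks it rests on few bases. Of the 327, 68.8% lay within 2 Mb of the longest gap. Their GC content was 39.3% ± 5.79 (SD, n = 327).

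The satellite motifs were more frequent in outside than in inside peaks, and most frequent in the senescent peaks that overlap a PRO peak. A CENP-B box was found in 95 outside peaks, 0.560%, in 12 inside peaks, 0.0830%, and in 0.0466% of all genome windows of the same lengths. It was found in 5.17% of senescent peaks that overlap a PRO peak and in 1.65% of those of 4000 bp or more. Runs of GGAAT, with 3 copies or more, stood in 28 outside peaks, 0.165%, in 3 inside peaks and in 0.0258% of windows. They stood in 2.93% of senescent peaks that overlap a PRO peak and in 1.65% of those of 4000 bp or more. The zinc finger linker was less frequent in outside than in inside peaks, with 67 outside peaks, 0.395%, and 161 inside peaks, 1.11%. It stood in 0.0773% of windows, in 3.47% of senescent peaks that overlap a PRO peak and in 7.97% of those of 4000 bp or more. CA runs of 10 copies or more were less frequent in outside peaks, at 0.938%, than in windows, at 2.09%. The same held for inside peaks, at 1.26% against 2.45% of windows of their lengths. A match describes letters and does not show that a protein was bound.

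The mean GC content of outside peaks was 49.7% ± 5.53 (SD, n = 16960) and that of inside peaks 49.9% ± 5.59 (SD, n = 14462), both above the 41.0% of the sequenced genome. The ratio of CpG found to CpG expected from base content was 0.238 in outside peaks, 0.233 in inside peaks and 0.237 in the genome. Base composition thus differed little between outside and inside peaks.

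Outside peaks lay away from coding genes. Coding gene bodies were touched by 29.3% of outside peaks (95% Clopper-Pearson interval 28.6 to 29.96%), 39.8% of inside peaks and 46.9% of all genome windows of the outside peaks' lengths. The median gap to the nearest coding gene was 46.7 kb for outside peaks and 11.2 kb for inside peaks, and 13.7% of outside peaks lay 500 kb or more from one, against 7.73%. Exons of coding genes were touched by 4.31% of outside peaks, 7.65% of inside peaks and 8.40% of windows. Promoters, taken as 2 kb on either side of a transcription start, were touched by 391 outside peaks, 2.31%, against 2.23% and 3.13%. No annotated promoter, coding gene, long noncoding RNA gene, pseudogene or other RNA gene was under 47.4% of outside peaks, against 41.1% of inside peaks and 35.3% of windows.

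Pseudogenes and long noncoding RNA genes were more frequent under outside peaks than in windows. Pseudogenes were touched by 4.42% of outside peaks, 4.76% of inside peaks and 2.14% of windows. Long noncoding RNA genes were touched by 22.5%, 20.4% and 19.8%. The sequence within 2 Mb of the longest gap of a chromosome held 1910 outside peaks, 11.3%, against 6.55% of inside peaks and 2.71% of windows. There 31.2% of the 75-base windows were repeated, against 10.2% in outside peaks elsewhere, and its part in the count was not tested.

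**Figure D3:**
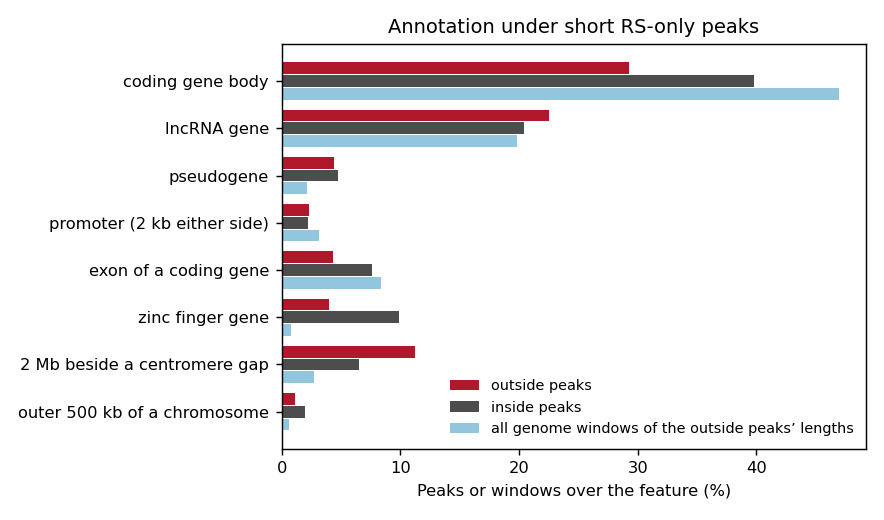
Share of peaks or windows over each feature (x axis, %) for outside peaks in red, inside peaks in grey and all genome windows of the outside peaks' lengths in blue. Outside peaks are below the windows for coding genes (29.3 against 46.9%) and above them beside the longest gaps (11.3 against 2.71%), and inside peaks are highest over zinc finger genes (9.92%).

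Chromosome 19, which carries most of the clustered zinc finger genes, had the highest density, with 20.8 outside peaks per sequenced Mb and 28.0 inside peaks. Chromosome 21 followed with 10.3 and chromosome 7 with 8.32, and chromosome 17 had the lowest density, with 3.83. The share of short RS-only peaks that were outside peaks was lowest on chromosome 19, at 42.6%, and highest on chromosome 21, at 67.4%. On chromosomes 21 and 22, 32.8% and 35.7% of the outside peaks lay within 2 Mb of the longest gap. On chromosome 21 that stretch held 118 outside and 9 inside peaks.

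**Figure D4:**
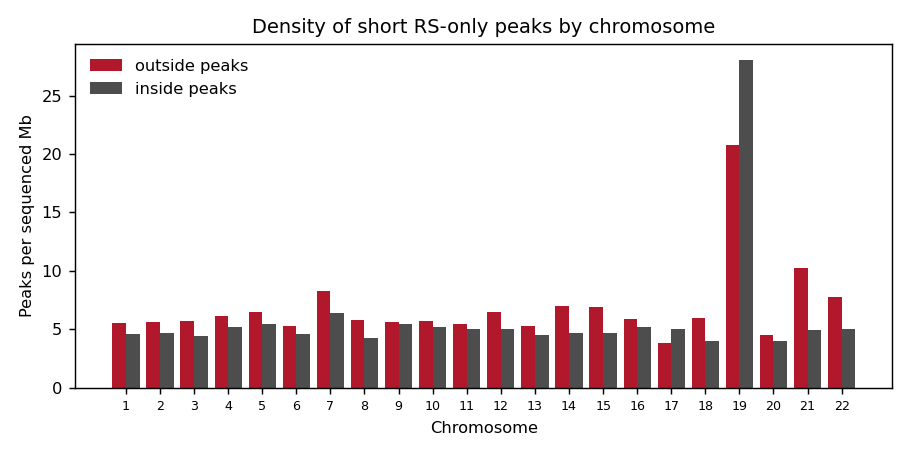
Outside peaks in red and inside peaks in grey per sequenced Mb (y axis) on chromosomes 1 to 22 (x axis). Chromosome 19 stands above the rest for both, at 20.8 and 28.0, and it and chromosome 17 are the chromosomes where inside peaks are the denser.

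Outside peaks were spread over most of the genome. Of 2694 windows of 1 Mb with at least 500 kb of sequence, 120 held no outside peak, and the median window held 5. The window with the most lay at chr19:22000001-23000000, with 141 outside and 141 inside peaks. All of its 8 coding genes were zinc finger genes, among them ZNF208 and ZNF257. It was followed by chr7:63000001-64000000, with 107 outside and 79 inside peaks and 6 zinc finger genes among its 6 coding genes. The window chr19:20000001-21000000 had 97 and 80, again with zinc finger genes as all of its 8 coding genes.

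The other 2 of the 5 densest windows held no zinc finger gene. The window chr14:19000001-20000000 had 105 outside and 12 inside peaks, over OR11H12, an olfactory receptor gene, and POTEM and POTEG, of a family of recent gene copies. The window chr22:16000001-17000000 had 82 outside and 16 inside peaks, over POTEH and OR11H1. In these windows 64.8% and 71.0% of the 75-base windows in outside peaks were repeated, against 7.47% in the densest window of chromosome 19. Among these 5 windows, picked for the most outside peaks, those with zinc finger genes had 79 to 141 inside peaks. Those of the acrocentric chromosomes had mostly outside peaks. Of the 5, all but chr19:20000001-21000000 held an outside peak within 2 Mb of the longest gap of the chromosome. A near-even split was not particular to zinc finger genes. A window of chromosome 7 with no coding gene, not among the 5, had 79 outside and 80 inside peaks.

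Most outside peaks stood apart from other outside peaks, with senescent peaks of other classes left out of the count. With outside peaks joined where they lay within 5 kb, 11443 had no outside neighbour, which is 67.5%, and 820 stood in runs of 5 or more. The longest run had 19 peaks over 37.4 kb at chr7:63573001-63610401. A run of 13 peaks lay at chr15:25465801-25497401, where 0.560% of the 75-base windows were repeated. Runs of inside peaks were not counted. The median gap to the nearest other senescent peak of any class was 8.80 kb, against 4.20 kb for inside peaks. Such a peak lay within 10 kb of 51.8% of outside peaks and 58.3% of inside peaks.

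The DiffBind list lay near for a part of the outside peaks. The median gap to its nearest region was 38.0 kb, 1048 outside peaks lay within 1000 bp of one, which is 6.18%, and 164 lay 500 kb or more away. PRO peaks were farther, with a median gap of 517 kb, and 273 outside peaks lay within 1000 bp of one.

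Many zinc finger genes encode DNA-binding repressors, and some of these act on transposons through KAP1. Zinc finger genes were picked here by symbol, whatever their function. They were touched by 674 outside peaks, 3.97% of the class (95% Clopper-Pearson interval 3.69 to 4.28%), against 9.92% of inside peaks and 0.829% of windows. Of the 674, 68.7% lay on chromosome 19, and without that chromosome the share of outside peaks was 1.34%. The 0.829% of windows includes chromosome 19 and was not computed without it, so 1.34% cannot be set against it. Of the 553 zinc finger genes, 247 carried an outside peak, or 44.7%, against 13.3% of all 19229 coding genes. Of these 247, 180 also carried an inside peak and 67 did not. Another 90 had inside peaks alone. Over all coding genes, 2552 carried an outside peak, of which 1272 also carried an inside peak and 1280 did not. Another 1302 coding genes had inside peaks alone. Outside peaks took up 3.10% of the bases of the zinc finger genes and inside peaks 8.04%. Over all coding genes these shares were 0.357% and 0.511%.

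Along the gene, the middle of an outside peak stood in the 3′ part beyond the midpoint in 53.0% of 690 cases, and that of an inside peak in 62.4% of 1499. In the first 20% of the gene stood 18.8% of outside and 10.3% of inside peaks. Outside peaks over zinc finger genes had a median gap to a DiffBind region of 2.60 kb, without those that had a shared word or the alpha satellite period. In the last 20% stood 23.04% of outside and 24.08% of inside peaks, so the classes differed in the first 20% and little in the last. Outside peaks in these genes lay nearer to the DiffBind list than the class as a whole.

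The zinc finger genes with the most bases in outside peaks lay on chromosome 19. ZNF432 (chr19:52534631-52598991, minus strand) had 14 outside and 7 inside peaks, and outside peaks took up 25.8% of its body. ZNF578 (chr19:52956806-53020135, plus strand) had 12 and 9, with 23.1%. ZNF675 had 12 and 13, with 9.79%, and ZNF98 had 12 and 34, with 11.2%. Outside peaks were in the majority in ZNF432 and ZNF578 and in the minority in ZNF98.

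The coding genes with the most outside peaks over their bodies were long genes, all of them over 500 kb. PTPRN2, which encodes a protein of secretory vesicles (chr7:157331750-158380515, minus strand), had 54 outside and 19 inside peaks over 1049 kb. DPP6, which encodes a partner of potassium channels (chr7:153445218-154685995, plus strand), had 29 outside and 5 inside peaks over 1241 kb. DLGAP2, which encodes a scaffold of the synapse, had 24 and 15. The others were AGBL4, STPG2, CCSER1, RBFOX1, CNTNAP2, SPAG16 and GALNT17, with 16 to 21 outside peaks and 1 to 10 inside peaks each.

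RBFOX1, a splicing factor of neurons, had 18 outside peaks and 1 inside peak over 2474 kb, the most uneven of the 10. Per 100 kb the 10 genes ranged from 0.728 outside peaks in RBFOX1 to 5.15 in PTPRN2. The share of their body in outside peaks ranged from 0.623% to 5.19%, beside 0.357% over all coding genes. The part of gene length in these counts was not tested.

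The coding genes of 2 kb or more with the largest share of their body in outside peaks were short, between 2.02 and 6.797 kb. None of the 10 had an inside peak, but a short body mostly covered by outside peaks leaves little room for one. Over all coding genes, 1280 of the 2552 with an outside peak had no inside peak. SOX14, a transcription factor of neural development in a single exon (chr3:137483157-137485176, plus strand), had 1 outside peak over 59.5% of its body, with 0% of the 75-base windows repeated. PRAMEF11 had 4 peaks over 62.8%, with 41.1% of the windows repeated. PCDHB3 and PCDHB5, adhesion proteins of neurons, each had a peak of 1801 bp, over 53.7% and 52.8%.

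The remaining genes of that list were FAM90A13P, FAM90A20P, FAM90A11P and FAM90A3P, from a tandem array, and the models AL591479.1 and AL050302.1. Outside peaks took up 61.7 to 99.5% of their bodies. Repeated windows made up 55.5 to 100% in the FAM90A genes, where near-identical copies cannot be told apart by short reads. Of the 48 genes of the USP17L, FAM90A and REXO1L families 11 had an outside peak, or 22.9%, and 1 an inside peak, or 2.08%, against 13.3% and 13.4% of all coding genes.

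Clustered protocadherin genes lie in 3 tandem groups on chromosome 5, and many of their gene bodies share the same 3′ exons. An outside peak was found over 40 of the 53 genes, or 75.5%, against 13.3% of all coding genes, and since bodies overlap these came from 32 distinct peaks. An inside peak was found over 19 genes, or 35.8%, against 13.4%, from 23 distinct peaks. The median length of these genes is 110 kb, against 27.6 kb over all coding genes. The alpha group had 10 distinct outside and 13 inside peaks, the beta group 10 and 10, and the gamma group 12 and 0. In the beta group, where bodies do not overlap in this way, 10 of 16 genes had 1 outside peak each, over 21.4 to 53.7% of the gene. Of the 32 peaks 90.6% touched an exon.

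The olfactory receptor, keratin-associated protein, kinesin and collagen families differed from all coding genes in opposite directions by genes and by bases. Olfactory receptor genes, of a median 2.09 kb, had an outside peak in 28 of 414, or 6.76%, and keratin-associated protein genes, of 0.859 kb, in 7 of 94, or 7.45%. Both are below the 13.3% of all coding genes, whose median length is 27.6 kb. By bases, outside peaks took up 1.11% and 3.98% of these families, above the 0.357% of all coding genes. Kinesin genes, of a median 55.8 kb, had an outside peak in 11 of 38, or 28.9%, and collagen genes, of 133 kb, in 14 of 42, or 33.3%, both above the share of all coding genes. By bases they were below it, at 0.279% and 0.283%. Histone genes, of a median 0.518 kb, had an outside peak in 0 of 74. COL24A1, the collagen gene with the most bases in outside peaks, had 4 outside and 0 inside peaks.

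Outside peaks over genes known for their roles in senescence and heterochromatin were few in number. Of 30 genes of the heterochromatin machinery 2 did: EHMT1, a methyltransferase for lysine 9 of histone H3, had 1 outside and 3 inside peaks, and SETDB1, another such enzyme, had 1 outside peak of 401 bp and no inside peak. Of 15 genes of the senescence arrest RB1, which encodes the retinoblastoma protein, had 3 outside peaks and 1 inside peak. None of 39 genes for secreted senescence factors, of a median 12.2 kb, and none of 30 cell cycle genes, of 18.2 kb, had an outside or an inside peak. Of 22 genes of the fibroblast matrix DCN, which encodes decorin, had 2 outside peaks over 1.88% of its body and no inside peak. These counts compare with 13.3% of all coding genes, and the lists are too short to be read against that share.

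Taken by the first feature that applied, the outside peaks divided as follows. The alpha satellite period held 327, a word with at least 10% of its sites in outside peaks a further 3569, a zinc finger gene 651, the sequence beside the longest gap 1321, and some other repeated window 3920. The remaining 7172 peaks, 42.3%, had none of these. Those had a GC content of 49.6% ± 4.75 (SD, n = 7172), a median length of 801 bp and a coding gene under 29.1%, so in length, GC content and gene cover they were close to the class as a whole. Their median gap to another senescent peak was 11.2 kb, against 23.999 kb for peaks with a shared word and 0.599 kb for those in zinc finger genes.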

How the data were processed

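H4K20me3 chromatin immunoprecipitation was sequenced in PRO and RS IMR90 cells with 2 antibodies each. Per the labels and the study's methods, Bowtie2 2.1.0 placed the single-end reads on hg19. The authors found peaks with SICER 1.1 in windows of 200 bp against a histone H4 control. They took the intersection of the peaks of both antibodies and scored differences with DiffBind 1.8.3. The submitters' processing notes also name Trim Galore 0.3.0 and Picard 1.98. The deposited values are coordinates alone, in 3 lists, with no read counts, scores or p-values. No depth at a peak, interval of height or test could be had from them. The study describes more DiffBind regions than the list holds, so membership applies to the list as given. Members and gene lists were chosen with earlier results of these data known.

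Starts were read as 0-based and printed 1-based. Overlap meant 1 shared base. Genes came from GENCODE release 44 lifted to GRCh37, whose chromosomes 1 to 22 match hg19. Genome windows were all non-overlapping windows without unknown bases of each peak length, weighted by the lengths of the outside peaks. Exact 75-base windows and 30-base words were counted on both strands, windows over chromosomes 1 to 22, X and Y and words over chromosomes 1 to 22, with Python 3.11.15, numpy 2.4.6 and numba 0.67.0. Scripts were tested on simulated data. Genes were named where they were among the 10 with the most outside peaks, the 10 of at least 2 kb with the largest share of body in them, or the leading 4 of a list, a part of which is printed. The 5 windows of 1 Mb with the most peaks were named. Some sequences are not reported here. Peak heights, sex chromosomes and single antibodies were not analysed here.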

Additional observations from a re-analysis of the deposited data

How the results depend on the processing

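The membership rule and the unit counted were varied in 8 ways, which gave 59 values. Of these, 34 stayed within the 95% interval of the value reported, or within 1.5 times it for counts, and 25 moved. The interval holds counting error only and takes peaks as independent, though some stood in runs. The tally therefore describes the changes and does not measure how robust a result is. Some moves follow from the change itself, such as a median length of 800 bp with ends lowered by 1 base. With outside peaks at least 1000 bp from every PRO peak and DiffBind region, 28.2% touched a coding gene, 2.77% a zinc finger gene and 5.70% lay on chromosome 19, and the share within 1000 bp of a DiffBind region was 0% by construction. With a minimum length of 600 bp, 28.5% touched a coding gene, 50.5% had a repeated window, 5.65% lay within 1000 bp of a DiffBind region and the median length was 1001 bp. With ends lowered by 1 base the share within 1000 bp was 5.08% and the median length 800 bp. Without peaks that hold a repeated window, 8935 peaks of 7.29 Mb were left, with 30.04% over a coding gene and 6.39% on chromosome 19. Without chromosome 19, 27.7% touched a coding gene, 1.34% a zinc finger gene and 5.26% lay within 1000 bp of a DiffBind region. With peaks within 1000 bp merged, 3.26% touched a zinc finger gene, 5.71% lay on chromosome 19, 48.8% had a repeated window and 6.79% lay within 1000 bp of a DiffBind region. By bases in place of peaks, 28.2% were in a coding gene, 4.37% in a zinc finger gene, 7.99% on chromosome 19 and 13.0% of windows were repeated. The share over zinc finger genes thus rests largely on chromosome 19. No paired analysis was possible because the lists hold no values per sample, and leaving out an antibody was not run for the same reason. Without heights, a peak just below the DiffBind or PRO threshold cannot be told from one far below it.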
